A study of Mus musculus with 6 samples.

Results

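Transcripts of 8 mast cell genes were followed in muscle of normal and dystrophic mice: the granule proteases Mcpt4, Cma1, Tpsb2 and Cpa3, the histamine-forming enzyme Hdc, the IgE receptor chains Fcer1a and Ms4a2, and the growth factor receptor Kit. They were found as every non-control probe whose RefSeq transcript belongs to one of these genes, which gave 9 of the 55681 probes on the array and 8 of its 20972 named genes. Tpsb2 had 2 probes and each other gene had 1. Total RNA was labelled with the dye Cy3 and hybridised to 6 one-colour Agilent arrays in 3 groups of 2. C57BL/10 mice, the normal strain, drank tap water in the group B10_tap. MDX mice drank tap water in the group MDX_tap and JJ101, a bioceramic water by its label, in the group MDX_JJ101. MDX mice carry a mutation of the dystrophin gene Dmd in all their cells. All groups had 10 months of their water. The labels give no age, do not say whether mice were pooled, and do not say whether the 2 replicates of a group were separate mice. The p-values below therefore measure the spread between these arrays, which may be technical.

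Mast cells are tissue-resident immune cells that arise from blood progenitors and mature in the tissue under the growth factor Kit ligand, which acts through the receptor Kit. They store proteases, histamine and heparin-like chains in granules and release them when IgE on the surface receptor is bridged by antigen. Mast cells are known to be present in dystrophic muscle, where their granules have been studied as a source of proteases and histamine.

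A level is here the log2 of a probe's processed signal relative to the 75th percentile of its array, so that 0 is the signal of a fairly bright probe. It serves to compare arrays for 1 probe and not to compare genes. The scanner software marks spots that are well above background, and so it marked 51.6% and 51.4% of B10_tap spots, 49.6% and 48.1% of MDX_tap spots and 43.8% and 42.5% of MDX_JJ101 spots. The lowest level marked in this way was between -4.23 and -3.90 on the tap water arrays and -3.33 and -3.29 on the MDX_JJ101 arrays. The median level of the 24539 probes that were not well above background on any array ranged from -6.25 to -5.91 on the tap water arrays and was -5.44 and -5.39 on the MDX_JJ101 arrays, so dim probes read higher in MDX_JJ101. All 6 arrays lay on 1 slide, with MDX_JJ101 in row 2 and the others in row 1, so slide row and JJ101 cannot be told apart. B10_tap lay in columns 1 and 2 and MDX_tap in columns 3 and 4, so genotype and the column on the slide cannot be told apart. The RNA was labelled as gastrocnemius, a limb muscle. Of 13 limb skeletal muscle markers 3 (Acta1, Ckm and Mybpc2) were well above background on all 6 arrays and 4, the regulators Myod1, Myog and Myf5 among them, on no array, while 8 of 10 heart muscle markers, Myh6, Gata4 and Nkx2-5 among them, were so on all 6. The fast fibre genes Myh4, Myh1, Myh2 and Actn3 were well above background on the 4 tap water arrays and on neither MDX_JJ101 array. Myh4, a fast myosin heavy chain, had levels of 2.62 and 2.28 for B10_tap, 0.91 and 3.53 for MDX_tap, then -5.52 and -5.42 for MDX_JJ101, which was at least 46.3-fold lower than MDX_tap (adjusted p = 0.0128). The part of these differences in muscle genes in the mast cell values was not tested. Dmd had levels of 1.06 and 1.06 for B10_tap, -0.84 and -0.27 for MDX_tap, then -1.50 and -1.74 for MDX_JJ101. The mdx mutation is a point mutation, so the level of a Dmd probe is no direct check of genotype.

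The stretches before the start sites of the genes are shown first because these genes are expressed in the same cell type, where the factor GATA2 is known to act through GATA motifs; the granule proteases Mcpt4, Cma1 and Cpa3 and the IgE receptor chain Fcer1a are printed, with Kit for contrast. The 250 bases before the start were taken from RefSeq on assembly GRCm38.p6, which held 7 of the 8 genes. They were searched on both strands for GATAA, the core of the GATA motif, which reads TTATC on the other strand, and for CATGTG, the E-box form bound by MITF, which reads CACATG on the other strand and is a special case of the general E-box CANNTG. Matches to GATAA and CATGTG are in capitals, and each stretch runs 5′ to 3′ towards the gene.
Mcpt4, chr14:56062311-56062560, minus strand: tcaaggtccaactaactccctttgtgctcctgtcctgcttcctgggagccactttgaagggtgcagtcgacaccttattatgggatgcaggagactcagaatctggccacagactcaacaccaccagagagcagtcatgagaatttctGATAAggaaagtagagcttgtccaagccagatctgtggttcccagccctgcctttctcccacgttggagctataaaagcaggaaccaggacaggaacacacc
Cma1, chr14:55944676-55944925, minus strand: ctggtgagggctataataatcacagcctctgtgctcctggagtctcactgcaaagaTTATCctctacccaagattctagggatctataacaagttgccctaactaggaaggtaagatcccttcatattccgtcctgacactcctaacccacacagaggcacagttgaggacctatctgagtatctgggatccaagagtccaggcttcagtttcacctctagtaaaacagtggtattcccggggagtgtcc
Cpa3, chr3:20242182-20242431, minus strand: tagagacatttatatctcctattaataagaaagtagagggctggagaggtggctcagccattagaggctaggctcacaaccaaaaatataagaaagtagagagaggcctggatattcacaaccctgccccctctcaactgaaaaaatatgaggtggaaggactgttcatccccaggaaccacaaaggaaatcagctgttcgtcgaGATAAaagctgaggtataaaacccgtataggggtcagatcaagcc
Fcer1a, chr1:173227230-173227479, minus strand: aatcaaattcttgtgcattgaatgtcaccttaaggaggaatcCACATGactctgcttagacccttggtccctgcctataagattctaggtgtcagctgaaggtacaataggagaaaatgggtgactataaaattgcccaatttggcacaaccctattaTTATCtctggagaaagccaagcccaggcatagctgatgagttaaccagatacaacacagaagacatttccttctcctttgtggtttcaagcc
Kit, chr5:75574737-75574986, plus strand: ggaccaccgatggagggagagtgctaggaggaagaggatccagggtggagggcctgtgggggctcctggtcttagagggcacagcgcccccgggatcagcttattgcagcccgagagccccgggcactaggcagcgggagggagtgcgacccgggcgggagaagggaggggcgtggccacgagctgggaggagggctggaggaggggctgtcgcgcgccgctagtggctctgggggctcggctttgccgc

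GATAA lay 102 to 98 bases before the start of Mcpt4 and 45 to 41 bases before that of Cpa3, and on the other strand 194 to 190 bases before Cma1 and 92 to 88 bases before Fcer1a. Ms4a2 held 3 matches, and Hdc and Kit held 0. In all, 5 of the 7 stretches had a match, and 22.6% of 32851 promoter stretches of the same length did. CATGTG occurred in Fcer1a alone among the 7, at 208 to 203 bases before the start, and in 12.3% of all stretches. The general E-box CANNTG was found in Cma1, Cpa3, Hdc and Fcer1a and in 66.2% of all stretches. Kit had none of the 3 motifs. A match is a run of letters in this window and says nothing of whether a factor was bound.

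Of the 8 genes, Mcpt4, Tpsb2, Cpa3, Hdc and Kit were well above background on all 6 arrays. Cma1 and Fcer1a were so on the 2 MDX_tap arrays only and entered the test through that group alone. Ms4a2 was well above background on no array and was not tested. Fewer mast cells and less RNA per mast cell cannot be told apart in RNA of whole muscle.

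**Figure D1:**
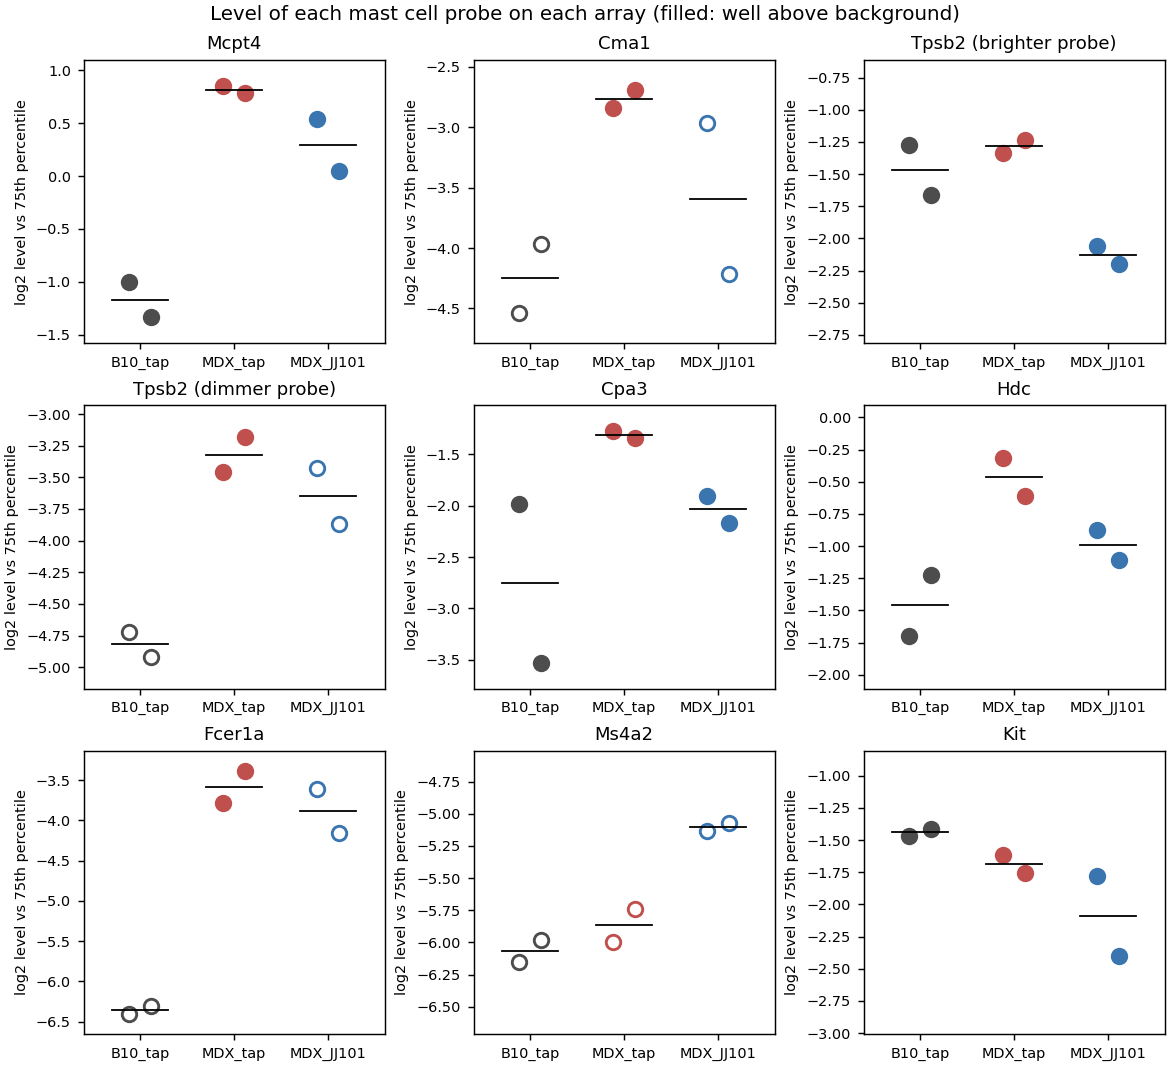
Level of each of the 9 mast cell probes on each array, on the log2 scale relative to the array's 75th percentile, with 1 point per array and a line at the group mean; filled points are well above background, open points are not, and each panel has its own axis range. Mcpt4, Cpa3 and Hdc have their highest points in MDX_tap, Kit has its highest in B10_tap, and the Fcer1a points of B10_tap lie far below the others.

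The first comparison set dystrophic against normal muscle, both on tap water. Mcpt4, Cpa3 and Hdc had higher levels on both MDX_tap arrays than on either B10_tap array, by 1.99, 1.45 and 1.00 on the log2 scale, but no difference passed the test over all genes. Of the 7 tested genes, 0 passed at an adjusted p under 0.05, where 0.0240% of the 20869 genes and transcripts passed. At an unadjusted p under 0.05, 5 genes (Mcpt4, Cma1, Cpa3, Hdc and Fcer1a) were higher, where 8.64% of all genes were, and Cma1 and Fcer1a are among them because MDX_tap was the group that let them into the test. Among the 5 genes well above background on all arrays, 3 were higher without overlap of the arrays (26.3% of 17124 such genes) and 1, Kit, was lower without overlap (35.5%). The median difference of these 5 was 1.00, and that of the 17124 genes was -0.04.

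The second comparison set MDX mice on JJ101 against MDX mice on tap water. All 5 genes well above background throughout had lower levels on both MDX_JJ101 arrays than on either MDX_tap array, and 31.0% of the 17124 genes did so. Their median difference was -0.53, against 0.08 over those genes. Only Tpsb2 passed the test, by its brighter probe, with a difference of -0.85, so 1 of 7 tested genes was called lower where 16.1% of all genes were. The lower level of these 5 genes in MDX_JJ101 kept its sign under each of 5 other ways of scaling the arrays.

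The third comparison set MDX_JJ101 against B10_tap and mixes genotype, water and slide position. Mcpt4 and the values of Fcer1a were called higher, 2 of 7 where 16.2% of all genes were. By its brighter probe Tpsb2 was called lower, 1 of 7 where 17.4% were. Its dimmer probe was called higher, with neither group well above background. Neither group had Fcer1a well above background, so that call compares background readings. Of the 5 genes measured on all arrays, Mcpt4 and Hdc were higher without overlap (45.1% of such genes were) and Tpsb2 and Kit lower without overlap (30.9%). The median difference of the 5 was 0.47, against 0.09 over the 17124 genes. This comparison shares the MDX_JJ101 arrays with the second and the B10_tap arrays with the first, so the 3 are not independent.

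**Figure D2:**
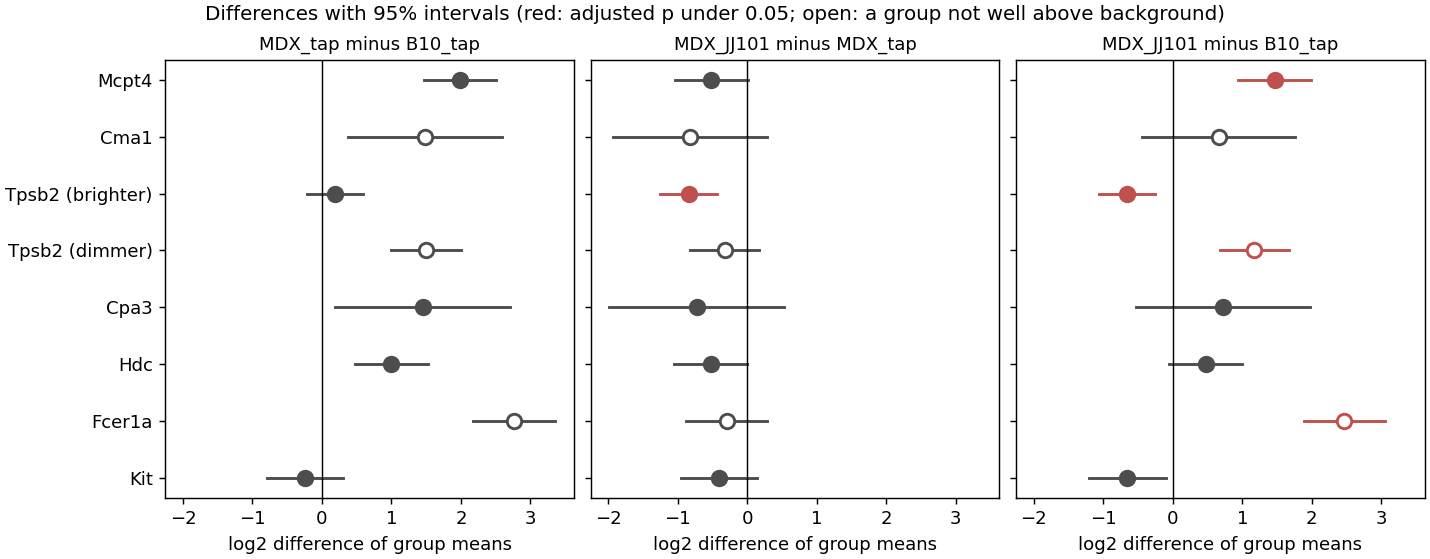
Difference of group means on the log2 scale for the 8 tested mast cell probes in each comparison, with 95% intervals from limma's fit; red marks an adjusted p under 0.05, and an open point marks a comparison in which at least 1 group was not well above background and whose value is not a measured fold. The filled red points are Mcpt4 at 1.47 and the brighter Tpsb2 probe at -0.66 against B10_tap and at -0.85 against MDX_tap.

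Mcpt4 and Cma1 encode granule proteases of the chymase family, and Mcpt4 is typical of the mast cells of connective tissue. Mcpt4 had levels of -1.01 and -1.33 on the B10_tap arrays, 0.85 and 0.78 on those of MDX_tap and 0.54 and 0.046 on those of MDX_JJ101. The 3 groups did not overlap and ran in the order MDX_tap, MDX_JJ101, B10_tap. The group means were -1.17 ± 0.23, 0.82 ± 0.045 and 0.30 ± 0.35 (SD, n = 2 each). MDX_tap exceeded B10_tap by 1.99 (SE 0.21, 3.96-fold, 95% interval 1.46 to 2.51), which missed the threshold of limma's test over all genes (adjusted p = 0.0595). This difference passed under 8 of 18 alternatives, with adjusted p from 0.000132 to 0.343, and without either MDX_JJ101 array it passed (0.0463).

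MDX_JJ101 exceeded B10_tap in Mcpt4 by 1.47 (SE 0.21, 2.76-fold, limma adjusted p = 0.0123), higher on 2 of 2 arrays. The call was lost with scaling to the spike-in probes (1.01, adjusted p = 0.0531), without B10_tap replicate 1 (0.0726) and without B10_tap replicate 2 (0.0768), and over its 18 alternatives the adjusted p ran from 0.00428 to 0.0768. MDX_JJ101 minus MDX_tap was -0.52 (SE 0.21, 95% interval -1.04 to 0.0027, adjusted p = 0.102). It was -0.77 without MDX_JJ101 replicate 1, where it passed (adjusted p = 0.0358), in a range of 0.0358 to 0.305 over the alternatives. Within slide column 3 the Mcpt4 difference was -0.30 and within column 4 it was -0.74.

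Cma1, the relative of the human chymase gene, lay near the limit of measurement. Its levels were -4.54 and -3.96 for B10_tap, -2.84 and -2.70 for MDX_tap, then -2.97 and -4.21 for MDX_JJ101, and it was well above background on both MDX_tap arrays and no other. Both MDX_tap arrays lay above the 4 other arrays, though MDX_JJ101 replicate 1 came close. Against the lowest signal marked as well above background, or the probe's own reading where that was higher, MDX_tap was at least 2.52-fold higher than B10_tap (adjusted p = 0.167) and at least 1.29-fold higher than MDX_JJ101 (adjusted p = 0.187). The first difference was 0.33 on the log2 scale with normexp background correction and 0.38 with the authors' table, smaller than this bound, and it passed with spike-in scaling (adjusted p = 0.0165), in a range of 0.0165 to 0.528. Neither passed as reported; the second passed without MDX_JJ101 replicate 1 (adjusted p = 0.0248) and with spike-in scaling (0.0138), in a range of 0.0138 to 0.602. The second Cma1 difference was -0.13 with normexp background correction, also smaller than its bound. No fold is given between MDX_JJ101 and B10_tap.

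Tpsb2 encodes a tryptase, the trypsin-like protease that is packed with heparin in the granule. On its brighter probe the levels were -1.27 and -1.66 for B10_tap, -1.33 and -1.23 for MDX_tap, then -2.06 and -2.20 for MDX_JJ101. B10_tap and MDX_tap overlapped, and both MDX_JJ101 arrays lay below all others. The level fell in MDX_JJ101 against MDX_tap by 0.85 (SE 0.16, 1.80-fold, limma adjusted p = 0.0185), and against B10_tap by 0.66 (SE 0.16, 1.58-fold, adjusted p = 0.0328). MDX_tap minus B10_tap was 0.18 (SE 0.16, 95% interval -0.22 to 0.59, adjusted p = 0.535). Within slide columns 3 and 4 the difference between MDX_JJ101 and MDX_tap was -0.73 and -0.96.

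The first Tpsb2 call was lost with normexp background correction (-0.35, adjusted p = 0.0589) and without MDX_tap replicate 1 (0.0645), MDX_tap replicate 2 (0.0724) or MDX_JJ101 replicate 2 (0.0659), in a range of 0.00801 to 0.0724 over 18 alternatives. The call against B10_tap held under 6 of 18 and was lost under the others, each of the 6 left-out arrays among them, with values of -0.86 to -0.47 where 1 array was left out. The dimmer Tpsb2 probe gave another picture. Its levels were -4.72 and -4.92 for B10_tap, -3.46 and -3.18 for MDX_tap, then -3.43 and -3.87 for MDX_JJ101, and it was well above background in MDX_tap only. The dimmer probe thus entered the test through MDX_tap alone, so its higher reading there is no independent result. By that probe MDX_tap was at least 1.81-fold higher than B10_tap (limma adjusted p = 0.0762 with every probe as its own feature). The brighter probe had the 2 groups overlapping. Averaging both probes turned the difference between MDX_JJ101 and B10_tap to 0.26 (adjusted p = 0.276), from a range of 0.0185 to 0.276 over its alternatives. In MDX_JJ101 against B10_tap the dimmer probe was called higher, by 1.17 (limma adjusted p = 0.0174 with every probe as its own feature). That is opposite to the brighter probe, but neither group was well above background, so the call compares background readings. Which Tpsb2 probe follows the transcript was not tested, and its close relative Tpsab1 was matched by no probe here.

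Cpa3 encodes the carboxypeptidase of the mast cell granule, which trims residues from the ends of peptides. Its levels were -1.98 and -3.53 for B10_tap, -1.27 and -1.34 for MDX_tap, then -1.91 and -2.17 for MDX_JJ101. Both MDX_tap arrays lay above all others, and B10_tap spread widely (SD 1.09), with 1 array next to MDX_JJ101 and the other far below. MDX_tap minus B10_tap was 1.45 (SE 0.49, 2.73-fold, adjusted p = 0.199). It was 2.22 without B10_tap replicate 1 and 0.67 without B10_tap replicate 2, and it passed with spike-in scaling (1.42, adjusted p = 0.0223), in a range of 0.0223 to 0.411. MDX_JJ101 minus MDX_tap was -0.73 (SE 0.49, 95% interval -1.98 to 0.53, adjusted p = 0.285), and it was -0.63 and -0.82 within slide columns 3 and 4. This difference passed with only the 2 groups compared or without either B10_tap array (adjusted p = 0.0475 in each) and with spike-in scaling (0.0248), in a range of 0.0248 to 0.532. MDX_JJ101 minus B10_tap was 0.72 (adjusted p = 0.296), but -0.054 without B10_tap replicate 2.

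Hdc encodes histidine decarboxylase, the enzyme that makes histamine from histidine. It had levels of -1.70 and -1.22 for B10_tap, -0.32 and -0.61 for MDX_tap, then -0.87 and -1.11 for MDX_JJ101. The 3 groups did not overlap and took the same order as Mcpt4. The differences were 1.00 for MDX_tap minus B10_tap (SE 0.21, 2.00-fold, 95% interval 0.47 to 1.53, adjusted p = 0.116), -0.53 for MDX_JJ101 minus MDX_tap (SE 0.21, adjusted p = 0.102) and 0.47 for MDX_JJ101 minus B10_tap (SE 0.21, adjusted p = 0.134). None passed, so neighbours in this order were not shown to differ beyond their spread. The last difference was 0.87 with median centring, where it passed (adjusted p = 0.0148), and 0.012 with spike-in scaling, in a range of 0.0148 to 0.989. The difference between MDX_JJ101 and MDX_tap was -0.55 in slide column 3 and -0.50 in column 4.

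Fcer1a and Ms4a2 encode the alpha chain, which binds IgE, and the beta chain, which strengthens the signal, of the high-affinity IgE receptor. Fcer1a had levels of -6.40 and -6.30 for B10_tap, -3.78 and -3.38 for MDX_tap, then -3.61 and -4.16 for MDX_JJ101. It was well above background on both MDX_tap arrays and no other, and the B10_tap readings were close to the median of probes not well above background on any array. By its bound MDX_tap was at least 1.51-fold higher than B10_tap, and the difference did not pass (limma adjusted p = 0.0528). That p belongs to the full difference from background readings and not to the bound. Fcer1a also entered the test through MDX_tap alone, the group where it was high, so the p is no independent support. The fit to all genes put this difference at 2.77 on the log2 scale, which is not a measured size since B10_tap was at background. With normexp background correction the difference was 0.37, smaller than the bound. Fcer1a passed in this comparison under 5 of 17 alternatives, without either MDX_JJ101 array among them (0.0456), with adjusted p from 2.28e-09 to 0.311.

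MDX_tap and MDX_JJ101 overlapped in Fcer1a (adjusted p = 0.341), and no bound on a fold could be given. The call for MDX_JJ101 against B10_tap (adjusted p = 0.00855) was lost with normexp (0.128), with the authors' table (0.127), and without B10_tap replicate 1 (0.0674) or replicate 2 (0.061), in a range of 1.08e-05 to 0.128. Ms4a2 had levels of -6.15 and -5.98 for B10_tap, -6.00 and -5.74 for MDX_tap, then -5.14 and -5.07 for MDX_JJ101, all close to the median of such probes on the same arrays. Its highest readings were in MDX_JJ101, as were the medians of such probes. With no filter on dim probes the Ms4a2 difference for MDX_JJ101 minus MDX_tap was 0.76 (adjusted p = 0.0217), a value below the limit of measurement on all 6 arrays.

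Kit encodes the receptor for Kit ligand, on which mast cells depend, and is also made by blood progenitors, melanocytes and interstitial pacemaker cells. Its levels were -1.47 and -1.41 for B10_tap, -1.61 and -1.75 for MDX_tap, then -1.78 and -2.40 for MDX_JJ101. The groups did not overlap, and their order of B10_tap, MDX_tap, MDX_JJ101 was unlike that of Mcpt4, Cpa3 and Hdc. The differences were -0.24 for MDX_tap minus B10_tap (SE 0.22, 95% interval -0.79 to 0.31, adjusted p = 0.544), -0.41 for MDX_JJ101 minus MDX_tap (SE 0.22, adjusted p = 0.187) and -0.65 for MDX_JJ101 minus B10_tap (SE 0.22, 1.57-fold, adjusted p = 0.0699). The second difference passed without MDX_JJ101 replicate 1 (-0.72, adjusted p = 0.0212; range 0.0212 to 0.569). The last one passed without that same array (-0.96, adjusted p = 0.0186), with spike-in scaling and with only probes well above background on all arrays, in a range of 0.0186 to 0.273.

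**Figure D3:**
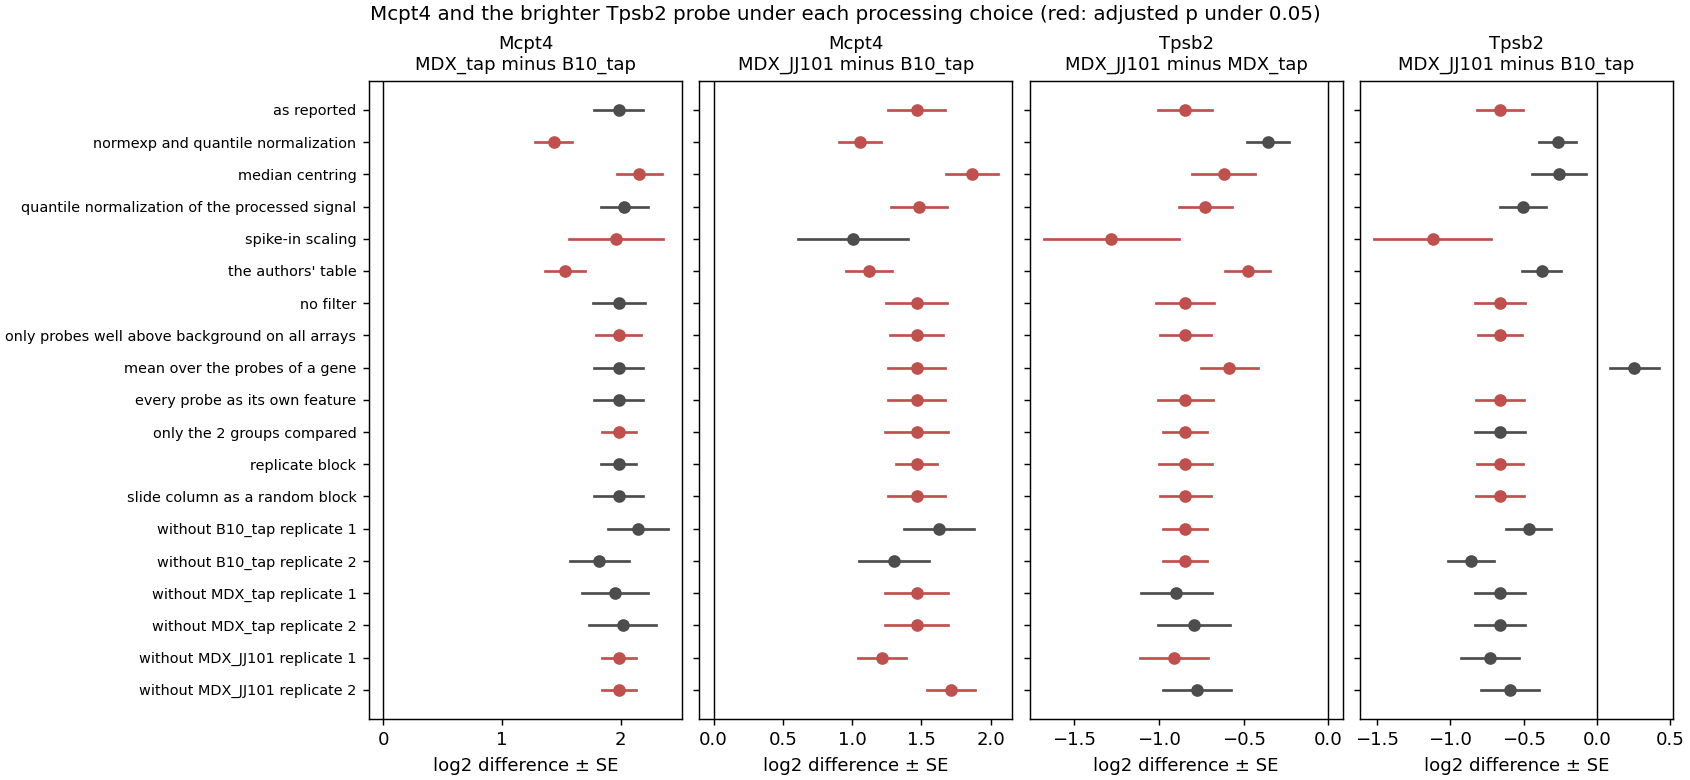
Log2 difference, with its standard error, of Mcpt4 and of the brighter Tpsb2 probe under the reported processing and each of 18 alternatives; red marks an adjusted p under 0.05. Mcpt4 stays above 0 in both comparisons, between 1.44 and 2.16 for MDX_tap minus B10_tap, and Tpsb2 crosses 0 once, at 0.26, where its 2 probes were averaged.

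Other genes of mast cell granules, signalling and mediators, many of them shared with other cells, were read from 8 further lists. In MDX_tap against B10_tap none of their tested members passed the test, where 0.0240% of all genes did. Between MDX_JJ101 and MDX_tap 36.1% of all genes passed in either direction, and the list counts below stand against 19.9% called higher and 16.1% called lower. Against B10_tap, MDX_JJ101 had 33.6% of all genes called, 16.2% higher and 17.4% lower.

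Of 11 other granule proteins 4 were tested. Srgn, the proteoglycan core that holds granule contents, and Slc18a2, which loads amines such as histamine into vesicles, fell in MDX_JJ101 against MDX_tap by 0.64 and 0.71, and 0 of the list rose. These carry adjusted p of 0.0145 and 0.0165. Slc18a2 was well above background on only 1 MDX_JJ101 array, and among 5 other scalings its difference was as small as -0.18. Srgn was also lower against B10_tap, by a difference of -0.67 (adjusted p = 0.0136). The further proteases Mcpt1, Mcpt2, Tpsg1, Ctsg and Gzmb were well above background on no array. Srgn is widely expressed outside mast cells.

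Among 7 tested of 8 transcription factors, Zfpm1, the GATA cofactor FOG1, rose in MDX_JJ101 against MDX_tap by 0.91 (adjusted p = 0.016), Stat5b by 0.41 (adjusted p = 0.0329), and Tal1, a partner of GATA factors in blood cells, fell by 0.63 (adjusted p = 0.0185). The Stat5b difference had the opposite sign with spike-in scaling, at -0.021. Against B10_tap Zfpm1 (0.59), Stat5a (0.50) and Stat5b (0.41, and -0.050 with spike-in scaling) rose and Tal1 (-0.66) fell. Gata2 and Mitf, the factors whose motifs were searched, had differences of -0.11 (adjusted p = 0.623) and 0.23 (adjusted p = 0.202) between MDX_JJ101 and MDX_tap. Gata1 was well above background on no array.

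IgE receptor signalling had 14 tested members of 15. In MDX_JJ101 against MDX_tap 3 rose and 3 fell. The 4 with the smallest p were Prkcb, a protein kinase C (-0.89, adjusted p = 0.0128), Plcg1, a phospholipase C (0.73, 0.0154), Lyn, the kinase that acts first on the receptor (-0.56, 0.0197), and Plcg2 (0.58, 0.0269). Against B10_tap 2 rose and 0 fell, Plcg2 by 1.13 (adjusted p = 0.00998) and Syk, the kinase recruited to the receptor, by 1.09 (adjusted p = 0.0102). Fcer1g, the gamma chain that the IgE receptor shares with other Fc receptors, averaged 3.19 (B10_tap), 4.19 (MDX_tap) and 3.34 (MDX_JJ101). Its differences were 1.01 (adjusted p = 0.163) and -0.85 (adjusted p = 0.0703) in the first and second comparisons.

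Of 12 growth factors and receptors 7 were tested, and 3 fell while 0 rose in MDX_JJ101 against MDX_tap. Kitl, the ligand of Kit, fell by 0.65 (adjusted p = 0.0256), and Il1rl1, the receptor of interleukin 33, by 0.73 (adjusted p = 0.013). Tslp, an epithelial and stromal cytokine, was lower by at least 1.41-fold (adjusted p = 0.0124), being well above background in both tap water groups but not in MDX_JJ101. Among 5 other scalings the Tslp difference was as small as -0.25 on the log2 scale, smaller than this bound. Against B10_tap Kitl (-0.73) and Tslp (at least 1.54-fold lower) fell. Among the same scalings this Tslp difference was as small as -0.30, also smaller than its bound. Il3 and Il9r were well above background on no array.

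Surface receptors and other markers had 6 tested of 10. Cd200r1, an inhibitory receptor of myeloid cells, was at least 1.28-fold lower in MDX_JJ101 than in MDX_tap (adjusted p = 0.0161). Among 5 other scalings the Cd200r1 difference was as small as -0.25 on the log2 scale, smaller than this bound. Mrgprb1 was called lower in MDX_JJ101 than in B10_tap (adjusted p = 0.0157) with no bound on the fold. Mrgprb2, the receptor for basic peptides on connective tissue mast cells, was well above background on no array, as were Siglecf, Rgs13 and Cyp11a1.

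Of 8 genes for histamine receptors and removal 4 were tested, 0 passed in MDX_JJ101 against MDX_tap, and Hnmt, which inactivates histamine, fell against B10_tap (-0.49, adjusted p = 0.0256). Hrh3, Aoc1 and Slc22a3 were well above background on no array. For prostaglandin D2 and leukotriene C4, 6 of 10 were tested. In MDX_JJ101 against MDX_tap Cysltr1, a leukotriene receptor (-1.37, adjusted p = 0.0141), and Ptgs1, a cyclooxygenase (-0.49, adjusted p = 0.0436), fell, and Ptgs2 was at least 1.93-fold lower (adjusted p = 0.0267). Among 5 other scalings the Ptgs2 difference was as small as -0.50 on the log2 scale, smaller than its bound. Ltc4s, leukotriene C4 synthase, was lower against B10_tap (-0.46, adjusted p = 0.0417). Ptgdr, Ptgdr2 and Cysltr2 were well above background on no array.

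Of 14 cytokines 8 were tested. In MDX_JJ101 against MDX_tap Vegfa rose by 0.60 (adjusted p = 0.0344) and Il6 was at least 2.22-fold lower (adjusted p = 0.0446), a bound that rests on MDX_tap replicate 1, while 0 passed against B10_tap by limma's test and 2 had an unadjusted p under 0.05. The Il6 levels of MDX_tap were -0.90 and -3.42, and the second lay below the lowest level marked as well above background for MDX_JJ101. Among 5 other scalings the Il6 difference was as small as -0.70 on the log2 scale, smaller than its bound. The cytokines Il4, Il5, Il13, Csf2 and Ccl1 were well above background on no array.

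**Figure D4:**
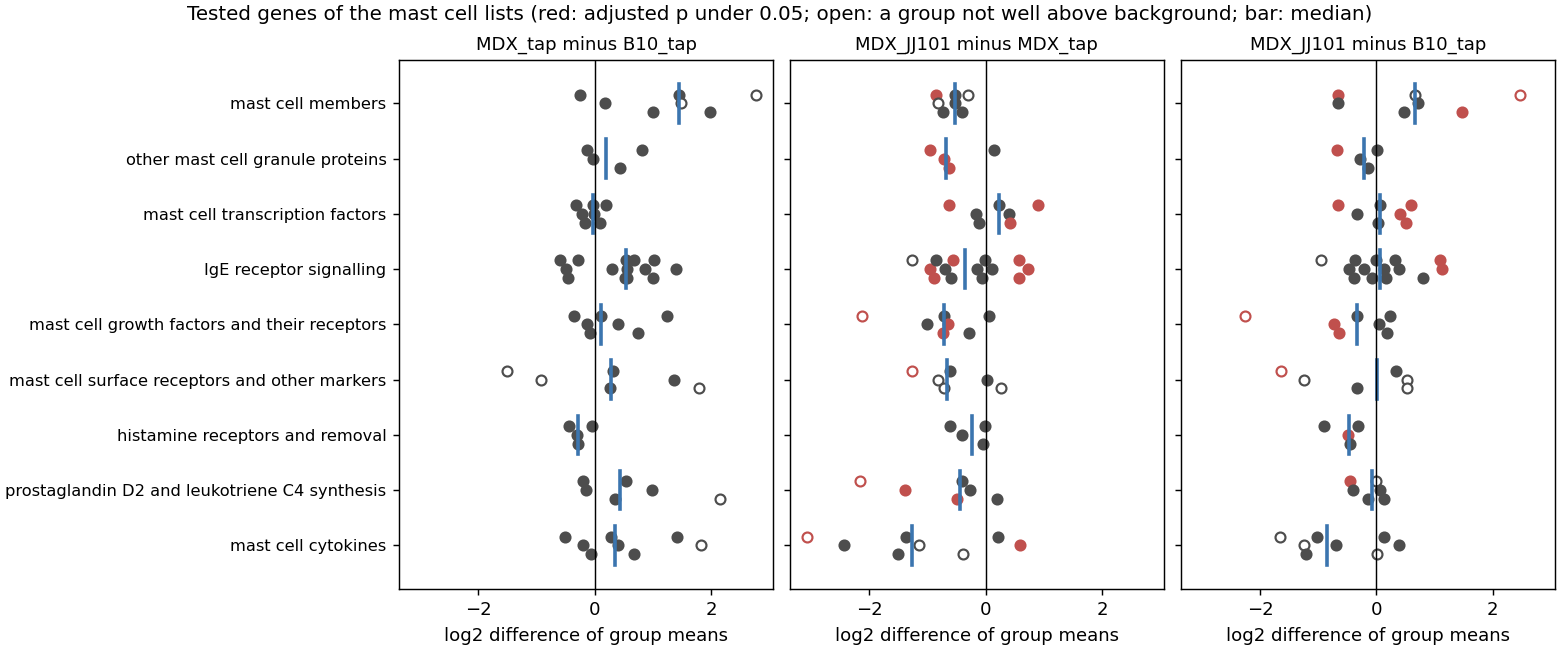
Log2 differences of the tested genes of the 8 mast cell genes and of 8 lists around them in each comparison, with 1 point per gene and a blue bar at the list's median; red marks an adjusted p under 0.05, and open points had at least 1 group not well above background. In MDX_tap minus B10_tap no point is red, and in MDX_JJ101 minus MDX_tap the red points of the granule, growth factor and prostaglandin and leukotriene lists lie below 0.

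Other cell types were followed through their own markers. The basophil markers Mcpt8, Prss34 and Cd200r3 were well above background on 0 of 6 arrays, as were the eosinophil granule genes Epx and Prg2 and the receptor Ccr3. Summed on the linear scale, the signal of the 6 eosinophil markers was 0.616 to 0.68 times the 75th percentile in B10_tap, 1.68 to 2.65 in MDX_tap and 0.722 to 1.02 in MDX_JJ101. This sum is mostly Ear2, the only 1 of them well above background on all arrays (mean levels -1.32, 0.70 and -0.72). Ear6 differed by -0.03 between MDX_tap and B10_tap. The 8 mast cell genes summed to 1.70 to 1.90, 3.76 to 3.97 and 2.27 to 3.04 in the same order. Mcpt4 was the brightest of them by group mean (-1.17, 0.82 and 0.30). Cpa3 and Hdc were also highest in MDX_tap, but Kit was highest in B10_tap. On the brighter Tpsb2 probe B10_tap and MDX_tap overlapped. Markers of macrophages (9 of 9 well above background on all arrays) summed to 73.1 to 77.4, 97.9 to 130.4 and 63.8 to 74.9, and those of fibroblasts (7 of 7) to 466.1 to 495.4, 726.7 to 782.7 and 282.7 to 424.5. A linear sum weighs its brightest member most, which among the fibroblast markers was Dcn (mean levels 8.55, 9.08 and 7.83). The sums of these 4 lists were highest in MDX_tap, but not all lists ran so. Dendritic cell markers summed to 83.4 to 88.7, 69.0 to 84.4 and 55.0 to 55.9. T and NK cell markers summed to 6.572 to 6.575, 6.23 to 6.28 and 4.68 to 5.26, so both sums had their highest array in B10_tap. The neutrophil sums of the groups overlapped, at 3.74 to 5.87, 4.82 to 9.05 and 3.66 to 5.44. The part of these other cells in the mast cell values was not tested. In MDX_JJ101 against MDX_tap 5 of 9 macrophage markers, 3 of 7 fibroblast markers and 2 of 3 tested eosinophil markers were called lower and 0 of each higher. The same comparison called lower 5 of 7 endothelial, 2 of 4 neutrophil and 1 of 5 dendritic cell markers that were tested. It also called lower 2 of 5 T and NK cell markers and 3 of 5 B and plasma cell markers, and 0 of these lists higher. Of all genes 16.1% were called lower there.

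Kit has sources besides mast cells. Of the other Kit-bearing cell types, the melanocyte markers had 3 of 5 well above background on all arrays and summed to 1.05 to 1.65, 0.954 to 1.26 and 1.47 to 2.13 in B10_tap, MDX_tap and MDX_JJ101. These 3 ran apart. Dct, the brightest, averaged -0.20, -0.72 and 0.26. Tyr took the order of Kit (-1.95, -2.31 and -2.73), and Mlana took the reverse order (-3.30, -2.39 and -1.70). Blood progenitor markers had 3 of 6 well above background on all arrays, and summed to 65.6 to 71.9, 85.1 to 92.6 and 56.2 to 73.2. This sum is mostly Cd34, by far the brightest of them (mean levels 5.96, 6.35 and 5.76), while Gfi1b was well above background on no array. The pacemaker markers Ano1 and Etv1 summed to 6.65 to 7.07, 7.50 to 7.87 and 5.98 to 6.51. Ano1 averaged 1.68, 1.64 and 1.13, in the order of Kit, and Etv1 averaged 1.86, 2.19 and 2.02, highest in MDX_tap. The part of these cell types in the Kit level was not tested.

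The genes whose levels ran most nearly alike over the 6 arrays were sought among 12308 named genes well above background on all arrays. The correlations are descriptions over 6 arrays of 3 groups on 1 slide, and the highest of so many is large by choice. For Mcpt4 they were Sprr1a (r = 0.999), Fgl2 (0.993), Picalm (0.990), Tbc1d31 (0.987) and S1pr1 (0.987). Sprr1a averaged -3.18 for B10_tap, 0.28 for MDX_tap and -0.57 for MDX_JJ101. For Cpa3 they were Serpina3c (0.993), Col5a3 (0.980), Aacs (0.971), Mst1r (0.965) and Asphd2 (0.965). For Kit they were Akap5 (0.991), Timm8b (0.990), Tnfsf10 (0.989) and Dynlt3 (0.988), and the 3 sets had no gene in common. Among the mast cell genes themselves, Mcpt4 correlated with Hdc at 0.856 and with Cpa3 at 0.832, and with Kit at -0.399 and the brighter Tpsb2 probe at -0.0083.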

How the data were processed

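The deposited spot intensity values came from Agilent Feature Extraction 11.5.1.1 in the submitters' processing notes. Per the file headers the processed signal is background-subtracted and detrended, with surrogate values for dim spots. The authors' deposited series table is on the log2 scale; its columns ranked spots as the median signal did (Spearman correlation of 1), with medians of 5.69, 5.68, 5.68, 5.69, 5.69 and 5.69, and how it was made is not given in the sources used here. It served as an alternative.

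Here, log2 processed signals were centred on each array's 75th percentile over 59305 non-control spots, outlier-flagged spots were dropped and spots of a probe averaged. Probes well above background on both arrays of any group were kept (27258 of 55681), and 1 probe per gene, the brightest, was used: 20869 genes and transcripts, 13952 of them named through RefSeq accessions. A single limma 3.58.1 fit (R 4.3.3) held all 3 groups (two-sided, 3 residual and 2.21 prior degrees of freedom, Benjamini-Hochberg over all genes, threshold 0.05), and the steps were tested on simulated data. Where a group was not well above background, folds are bounds under the reported processing. Other scalings gave smaller differences for some of them. The number of arrays limits the precision.

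Named were the 8 genes with all probes, up to 4 members with the smallest p per list with a call, list members on no array, and the 5 genes most like Mcpt4, Cpa3 and Kit; some genes that this rule names are not reported here. Fcer1g, Gata2, Mitf and Sprr1a's levels were added after their values were seen. The mast cell genes, lists and tests were chosen with earlier results of these data known. Groups came from the labels. The alternatives covered scaling, background correction, filters, probe choice, arrays in the fit, replicate and slide column blocks, and each array left out.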

Additional observations from a re-analysis of the deposited data

How the results depend on the processing

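Over 18 alternatives per comparison the differences of the mast cell genes kept their direction and side of the threshold in 318 cases, gained a call in 29, lost one in 22 and changed sign in 3. The sign changes were Tpsb2 in MDX_JJ101 against B10_tap with the mean over its probes (0.26) and, without B10_tap replicate 2, Tpsb2 in MDX_tap against B10_tap (-0.011, and 0.38 without replicate 1) and Cpa3 in MDX_JJ101 against B10_tap (-0.054, and 1.49 without replicate 1). For MDX_tap against B10_tap, 5 genes passed as reported, 396 with normexp and quantile normalization, 285 with median centring, 415 with spike-in scaling, 337 with the authors' table, 151 with only probes well above background on all arrays, 15 with every probe as its own feature, 125 with only the 2 groups compared and 0 by limma with no filter (5113 at an unadjusted p under 0.05). Leaving out 1 array gave 0 to 125. The mast cell genes passing there numbered 0 as reported, 1 with normexp, 2 with median centring, 4 with spike-in scaling, 1 with the authors' table, 1 with probes on all arrays, 2 with 2 groups, and 0 to 2 with 1 array left out. For MDX_JJ101 against MDX_tap, 7529 genes passed as reported, 3795 with spike-in scaling, 13640 with no filter, 3247 with 2 groups, and 48 (without MDX_tap replicate 2) to 7701 with 1 array left out. The mast cell genes numbered 1 as reported, 0 with normexp, 3 with spike-in scaling, 2 with no filter, 2 with 2 groups, and 0 to 4 with 1 array left out. For MDX_JJ101 against B10_tap, 7008 genes passed as reported, 4458 with spike-in scaling, 14092 with no filter, and 76 (without B10_tap replicate 2) to 6908 with 1 array left out. The mast cell genes numbered 3 as reported, 1 with normexp, 1 with the authors' table, and 0 to 3 with 1 array left out. The cause of these shifts was not tested.

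Calls that were higher in MDX_JJ101 than in MDX_tap made up 4160 of 7529 as reported, 5692 of 7590 with median centring, 81 of 3795 with spike-in scaling and 10489 of 13640 with no filter. Against B10_tap they made up 3376 of 7008, 8457 of 10102, 105 of 4458 and 10303 of 14092. Median centring shifted the median gene by 0.23 and spike-in scaling by -0.43, and for MDX_JJ101 against B10_tap by 0.40 and -0.46. A lone array of a group was taken to vary like the others. Normexp used the median spot signal. The labels do not say whether replicate numbers pair the arrays. Deviations of same-numbered arrays correlated at -0.0314, -0.0639 and 0.163, which cannot show whether they were paired. The last value is for MDX_tap and MDX_JJ101, where replicates 1 and 2 lay in slide columns 3 and 4. With the replicate number as a block 4, 6517 and 5863 genes and 0, 1 and 3 mast cell genes passed in the 3 comparisons. Signal over background limits Cma1, Fcer1a, Ms4a2 and the dimmer Tpsb2 probe, and 2 arrays a group limit the rest.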
